A study of Mus musculus with 6 samples.

Results

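The 10 genes described here report or restrain bone morphogenetic protein (BMP) signalling and were followed in sorted cells of the embryonic mouse trachea. They were taken from the count table by symbol: the Id genes Id1, Id2, Id3 and Id4, the Smad genes Smad6, Smad7 and Smad9, the membrane inhibitor gene Bambi, and the genes of the secreted BMP-binding proteins Bmper and Grem1. All 10 were among the 23478 genes of the table, and all 10 passed the filter on low counts that left 19375 genes for testing. Tracheas were taken at embryonic day 13.5 from Bmp4 f/f embryos, that is with floxed Bmp4 alleles, which also carried eGFP as a reporter for gamma smooth muscle actin. All 6 libraries share this genotype and are labelled control, and no Cre driver is named. Muscle was collected by GFP and epithelium by an antibody to surface Epcam, with 3 libraries of each. The muscle population is thus defined by 1 reporter, and the labels do not say whether embryos were pooled or whether replicates came from separate litters, so p-values measure only the spread between these libraries.

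BMP ligands bind a pair of receptor kinases at the cell surface, which phosphorylate the receptor-regulated Smads (Smad1, Smad5 and Smad9), and these enter the nucleus with Smad4. Among the genes switched on most directly are the Id genes, whose proteins bind E proteins and keep them from DNA, and the inhibitory Smads, Smad6 and Smad7, which feed back on the receptors. Secreted proteins such as those encoded by Grem1, Bmper and Chrd bind the ligands outside the cell, and Bambi is a receptor-like membrane protein without a kinase domain. In the developing trachea BMP signalling takes part in the patterning of both the epithelium and the surrounding mesenchyme.

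Library totals ranged from 11847432 to 54848820 counts. The sorting genes followed the labels: the gamma smooth muscle actin gene Actg2 was at 1876 ± 1287 CPM (library-scaled counts; SD, n = 3) in muscle against 2.17 ± 0.50 in epithelium, and Epcam was at 1.53 ± 0.80 against 598 ± 96.9. The smooth muscle markers, 10 of 10, were higher in muscle, and so were the epithelial markers, 10 of 10, in epithelium. Muscle replicate 2 and epithelium replicates 2 and 3 stood apart, with counts in 73.4% to 78.8% of 1449 olfactory and vomeronasal receptor genes, against 2.90% to 17.4% in the other 3 libraries. These background counts averaged at most 1.24 CPM per receptor gene (epithelium replicate 2). Summed endothelial markers ran from 155 to 194 CPM in muscle and from 18.6 to 107 in epithelium, where replicate 2 was highest, and 3 of 12 were higher in muscle. Summed cartilage markers ran from 878 to 1544 CPM in muscle and from 253 to 596 in epithelium, with 3 of 10 higher in muscle. Of 9 neural and glial markers tested 1 was higher in muscle, and of 6 mesothelial markers 1 was higher in epithelium, Krt19, which is also on the epithelial list. Immune markers summed to between 3.34 and 44.2 CPM per library and erythroid markers to between 6.34 and 36.8.

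Of the 10 genes, Bambi and Bmper (2) were higher in muscle, and Id1 and Smad9 (2) in epithelium, in edgeR's quasi-likelihood test (threshold: adjusted p below 0.05). Below, log2FC is the fitted log2 fold change of muscle over epithelium, given with its SE. The shares of all tested genes called were 6.58% higher in muscle and 4.11% higher in epithelium, 10.7% in all. In 7 of the 10 the libraries of muscle and epithelium did not overlap, against 26.9% of all tested genes. The genes are mostly well expressed, and among the 12738 tested genes whose mean log2 CPM reached 2 the shares were 16.2% called and 37.1% without overlap. Without muscle replicate 1 or epithelium replicate 3 Bambi was the only one of the 10 called, and without muscle replicate 2, muscle replicate 3 or epithelium replicate 1 it was Bambi and Id1. In the 3 libraries with few background counts, a set chosen after the data were seen, Bambi, Bmper, Id1 and Id2 were called. That set holds muscle replicates 1 and 3 and only 1 epithelial library, replicate 1, which is assumed to vary as the muscle libraries do. The median log2 fold change, muscle over epithelium, was 0.15 over the 10 genes and -0.10 over all tested genes. In bulk libraries fewer cells with a transcript and less of it per cell cannot be told apart. Because scaling by library size only moves the median of all genes to -0.33, and the share of calls that are higher in muscle from 61.5% to 42.0%, small differences are to be read relative to that shift.

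**Figure D1:**
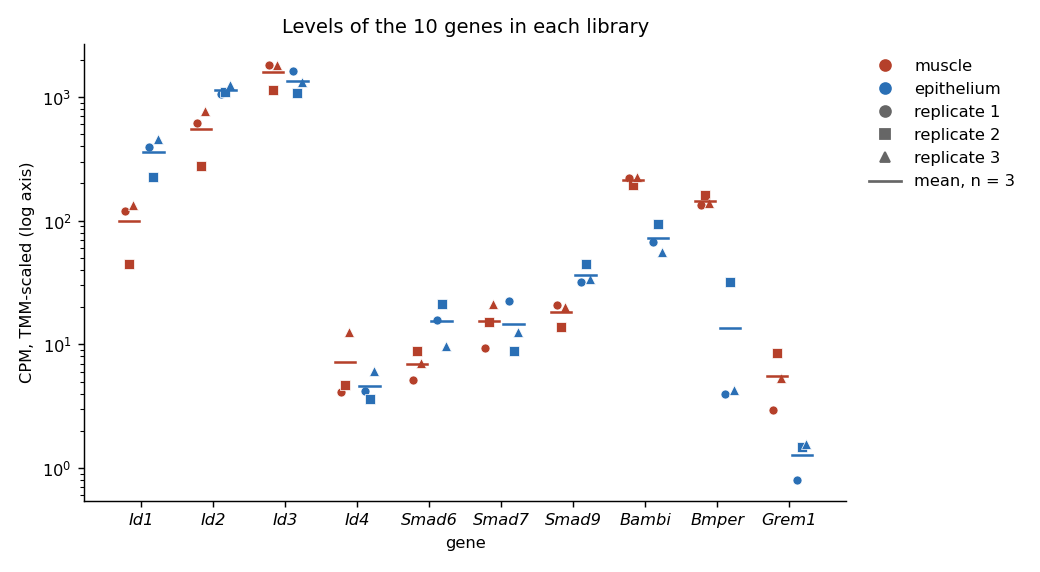
Levels of the 10 genes in CPM over TMM-scaled library sizes (y axis, log scale) in each library, by gene (x axis). Red points are muscle and blue points epithelium, the symbol gives the replicate, and bars are means of 3 libraries. Id1, Id2, Smad6 and Smad9 lie higher in all epithelial libraries, Bambi, Bmper and Grem1 in all muscle libraries.

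The promoters of 4 genes whose groups did not overlap are shown because they lie on both sides of the comparison: Smad9 and Smad6 (higher values in epithelium) and Bmper and Grem1 (higher values in muscle). Each is the 250 bases before the transcription start in RefSeq (GRCm38.p6), 5′ to 3′ on the gene's strand: chr3:54755332-54755581 (plus) for Smad9, chr9:64022060-64022309 (minus) for Smad6, chr9:23222826-23223075 (plus) for Bmper and chr2:113758649-113758898 (minus) for Grem1. Capitals mark GGCGCC, the GC-rich element to which BMP Smads bind and which is its own reverse complement, and CAGAC or its reverse complement GTCTG, the short Smad box. The motifs did not overlap each other in these windows.
Smad9: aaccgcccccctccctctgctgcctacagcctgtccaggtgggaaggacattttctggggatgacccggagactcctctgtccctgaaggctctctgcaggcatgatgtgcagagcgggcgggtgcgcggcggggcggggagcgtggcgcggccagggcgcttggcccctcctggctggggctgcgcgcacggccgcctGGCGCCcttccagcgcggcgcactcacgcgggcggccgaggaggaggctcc
Smad6: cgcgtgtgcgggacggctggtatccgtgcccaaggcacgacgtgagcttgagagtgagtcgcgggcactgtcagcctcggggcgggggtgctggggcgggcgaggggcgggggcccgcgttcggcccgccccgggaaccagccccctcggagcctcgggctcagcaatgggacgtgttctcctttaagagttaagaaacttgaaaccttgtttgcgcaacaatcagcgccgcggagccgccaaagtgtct
Bmper: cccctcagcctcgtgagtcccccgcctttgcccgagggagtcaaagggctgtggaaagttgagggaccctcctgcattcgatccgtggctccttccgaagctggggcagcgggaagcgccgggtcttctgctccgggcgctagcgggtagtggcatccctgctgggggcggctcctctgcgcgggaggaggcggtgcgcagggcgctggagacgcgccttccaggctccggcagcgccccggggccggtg
Grem1: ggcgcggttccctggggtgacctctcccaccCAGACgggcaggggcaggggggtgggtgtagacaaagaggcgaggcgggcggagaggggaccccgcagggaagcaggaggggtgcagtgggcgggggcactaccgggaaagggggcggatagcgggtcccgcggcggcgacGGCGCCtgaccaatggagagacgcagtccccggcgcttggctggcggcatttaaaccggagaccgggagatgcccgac

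GGCGCC was found once in the Smad9 window and once in the Grem1 window, and CAGAC once in the Grem1 window. On both strands, 9.59% of 32851 RefSeq promoter windows of the same length held GGCGCC and 42.2% held CAGAC or GTCTG. The windows shown are rich in G and C (66.8% to 73.2%, against a median of 52.4% over all windows). A gene higher in epithelium (Smad9) and one with higher values in muscle (Grem1) thus both carry the GC-rich element within this distance. Of the windows not shown, those of Id2 and Id4 held GGCGCC once each, and that of Id3 held CAGAC or GTCTG at 2 positions. Such matches describe letters only.

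The Id genes encode small helix-loop-helix proteins without a DNA-binding region. Id1, whose exons merged over 2 transcripts form 1 block at chr2:152736251-152737410 (GENCODE M21, GRCm38), was the Id gene with the largest difference. Its level was 121, 44.5 and 134 CPM in muscle replicates 1 to 3 and 397, 225 and 459 CPM in epithelium replicates 1 to 3. Every epithelial library was above every muscle library, and replicate 2 was the lowest in both populations. edgeR put the log2FC at -1.85 ± 0.44 (adjusted p = 0.028), or 3.61-fold higher in epithelium. Without muscle replicate 1 (adjusted p = 0.062, edgeR) or epithelium replicate 3 (0.063) the call was lost.

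Id2 had 619, 279 and 769.8 CPM in muscle and 1057, 1102 and 1243 CPM in epithelium. The epithelial libraries lay close together and above all muscle libraries, among which replicate 2 was low. At a log2FC of -1.03 ± 0.36 it missed the threshold (adjusted p = 0.12, edgeR), and the 95% interval ran from -1.84 to -0.21. In 8 of 17 alternative analyses it did pass, among them DESeq2 (adjusted p = 0.00087) and limma-voom (0.046), and its epithelial level was higher in all 17. It passed in none of the 6 fits that left out a library (adjusted p from 0.094 to 0.25, edgeR). The replicate block (0.067), the fit without a filter (0.13) and halved counts (0.091) did not call it either.

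Id3 had the highest level per length of the 10 genes in both populations. It had 1825, 1135 and 1802 CPM in muscle and 1627, 1071 and 1329 CPM in epithelium. The groups overlapped, with replicate 2 the lowest in each. edgeR gave a log2FC of 0.24 ± 0.29 (adjusted p = 0.82) with a 95% interval from -0.41 to 0.89, so a difference as large as that of Id1 lies outside the interval. The sign turned (-0.032) with library size only.

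Id4 was the least abundant Id gene, with 4.14, 4.69 and 12.6 CPM in muscle and 4.2, 3.61 and 6.08 CPM in epithelium. Only muscle replicate 3 stood above the rest, and the groups overlapped. With a log2FC of 0.63 ± 0.66 (adjusted p = 0.78, edgeR) the 95% interval ran from -0.86 to 2.11, and without muscle replicate 3 the value was -0.060. GENCODE places exons of a pair of antisense-strand RNA genes over 2.13% and 4.44% of its exon length, and the counts carry no strand, so a small part of them could belong to those genes.

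The make-up of the Id transcripts was compared within each library, where no scaling between libraries enters. Levels were divided by the merged exon length of each gene in GENCODE M21 and expressed as a share of the summed Id1 to Id4 level in the same library. Merged exons can be longer than any 1 transcript, so the size of the shares depends on the annotation. Id3 made up 74.0%, 80.4% and 69.9% of Id transcripts in muscle and 53.9%, 48.0% and 45.0% in epithelium. The share of Id1 was 7.55%, 4.87% and 8.0% in muscle and 20.3%, 15.6% and 24.0% in epithelium. That of Id2 was 18.3% ± 3.69 (SD, n = 3) in muscle against 31.0% ± 5.30 in epithelium, and Id4 stayed at or below 0.23% in every library. The shares of Id1, Id2 and Id3 did not overlap between the groups. Shares of the same sum are tied to each other, so these are not separate results. A lower Id3 share in epithelium goes with higher Id1 and Id2 shares and does not mean a lower Id3 level. The summed Id level, which does depend on scaling between libraries, overlapped: it was 1202 ± 360.2 CPM per kb in muscle and 1526 ± 244 in epithelium. The order Id3, Id2, Id1, Id4 held in every library of both populations.

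**Figure D2:**
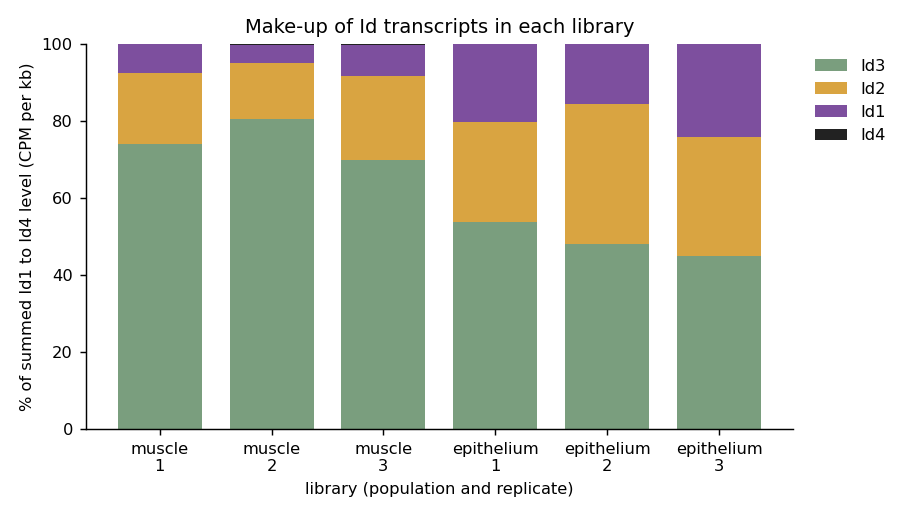
Share of each Id gene (y axis, percent of the summed CPM per kb of Id1 to Id4) in each library (x axis). Id3 takes 69.9% to 80.4% of the bar in muscle and 45.0% to 53.9% in epithelium, and Id4 is barely visible.

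The inhibitory Smads were both of low abundance. Smad6 encodes the inhibitor that acts mainly on BMP receptors and Smads. It had 5.17, 8.79 and 7.0 CPM in muscle and 15.6, 21.3 and 9.73 CPM in epithelium. All epithelial libraries were above all muscle libraries, with epithelium replicate 3 close to muscle replicate 2. Smad6 missed the threshold at a log2FC of -1.15 ± 0.41 (adjusted p = 0.12, edgeR), its 95% interval ran from -2.07 to -0.23, and its adjusted p was between 0.065 and 0.40 in the 17 alternatives.

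Smad7 encodes the inhibitor shared by the BMP and TGF-beta branches. It had 9.31, 15.3 and 21.4 CPM in muscle and 22.4, 8.89 and 12.6 CPM in epithelium. The lowest and the highest library were both epithelial. For Smad7 the log2FC was 0.06 ± 0.44 (adjusted p = 0.97, edgeR), with a 95% interval from -0.93 to 1.06, and its sign changed in 9 of 17 alternatives, among them scaling by DESeq2 size factors (-0.031) and by library size only (-0.14). Within each library the ratio of Smad6 to Smad7, per length, was 0.78, 0.81 and 0.46 in muscle and 0.98, 3.37 and 1.09 in epithelium. The ratio was higher in each epithelial library, and the wide epithelial range came from replicate 2, which had the most Smad6 and the least Smad7 of that group.

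Smad9, which encodes a receptor-regulated Smad of the BMP branch and is itself a known BMP target, had 20.7, 13.8 and 20.05 CPM in muscle. In epithelium it had 31.8, 44.2 and 33.6 CPM. The groups did not overlap, and replicate 2 was the lowest in muscle and the highest in epithelium. In edgeR the log2FC was -1.01 ± 0.26 (adjusted p = 0.043), 2.01-fold higher in epithelium. It no longer passed in any of the 6 fits that left out a library (adjusted p from 0.059 to 0.10), nor with limma-voom (0.053).

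The other BMP-branch Smads gave a background for Smad9. Smad5 had a log2FC of 0.43 ± 0.25 (adjusted p = 0.40, edgeR) and Smad1 one of -1.39 ± 0.41 (adjusted p = 0.064). The ratio of Smad9 to Smad5, per length, was 0.144 ± 0.009 (SD, n = 3) in muscle against 0.395 ± 0.094 in epithelium, without overlap. The ratio of Smad9 to Smad1 overlapped, at 0.995 ± 0.387 and 0.814 ± 0.363. Relative to Smad5, Smad9 was thus higher in each epithelial library, and relative to Smad1 it was not.

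Bambi encodes a decoy receptor that lacks a kinase domain and dampens signalling by BMP and TGF-beta receptors. It had 222, 196 and 227 CPM in muscle and 66.8, 93.8 and 56.3 CPM in epithelium. The muscle libraries were close together, and the highest epithelial library, replicate 2, was under the lowest muscle library. Bambi had a log2FC of 1.57 ± 0.26 (adjusted p = 0.0055, edgeR), 2.98-fold higher in muscle, and it passed in all 18 alternatives. The table has a separate row for the processed pseudogene Bambi-ps1, at chr2:122466935-122467526 in GENCODE M21, with 11.9% ± 0.88 (SD, n = 3) of the Bambi count in muscle and 10.8% ± 1.32 in epithelium. Reads of near-identical copies can be split between rows in counting, so the level of either row is uncertain. With both rows summed, an alternative chosen after the values were seen, the log2FC of Bambi was 1.59 (adjusted p = 0.0051, edgeR).

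Bmper encodes BMP-binding endothelial regulator, a secreted protein with chordin-type repeats that binds BMPs and can restrain or favour their signalling. It lies at chr9:23223076-23485200 (GENCODE M21). It had 135, 162 and 139.8 CPM in muscle and 4.0, 32.1 and 4.28 CPM in epithelium. The muscle libraries were close together, and epithelium replicate 2 stood well above the other epithelial libraries yet far below muscle. Its log2FC of 3.46 ± 0.78 (adjusted p = 0.023, edgeR) stands for 11.0-fold higher in muscle, the largest difference of the 10 genes in either direction.

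Without epithelium replicate 2 the log2FC of Bmper was 5.10 (adjusted p = 8.3e-05, edgeR). Leaving out any of the other 5 libraries ended the call (adjusted p from 0.051 to 0.087), as did library size only (0.070), fitting without a filter (0.052) and background counts as a covariate (0.052). The same epithelial library had the highest sums of endothelial and cartilage markers among the epithelial libraries, 107 and 596 CPM, and the most background counts, and their part in its Bmper level was not tested. Of the 12 endothelial markers, 5 averaged over 10 CPM in muscle and 2 in epithelium. In muscle replicates 1 to 3 Flt1 had 63.0, 63.6 and 58.7 CPM, Tek 34.6, 26.6 and 32.9, and Esam 28.9, 20.4 and 28.8. Cdh5 had 0.076, 3.94 and 1.87 CPM in these libraries, Emcn 0.038, 1.35 and 0.051, and Tie1 0, 1.85 and 6.95. The part of endothelial cells in the Bmper level of muscle was not tested.

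Grem1 encodes gremlin, a secreted antagonist that binds BMP ligands. It had 2.96, 8.44 and 5.38 CPM in muscle and 0.80, 1.47 and 1.58 CPM in epithelium, from 78, 169 and 213 counts and from 43, 22 and 42 counts. All muscle libraries were above all epithelial libraries. Olfactory and vomeronasal receptor genes averaged 0.0045, 1.24 and 0.43 CPM (over unscaled totals) in epithelium replicates 1 to 3. By CPM, Grem1 was near this background in replicate 2 and higher in the other epithelial libraries. Neither value was divided by gene length, so it is not shown that Grem1 was above the background per length in replicate 3. At 2.12 ± 0.93 its log2FC missed the threshold (adjusted p = 0.23, edgeR), and its 95% interval ran from 0.02 to 4.23. It passed in 2 of 17 alternatives, DESeq2 (adjusted p = 0.036) and the fit with background counts as a covariate (0.029).

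**Figure D3:**
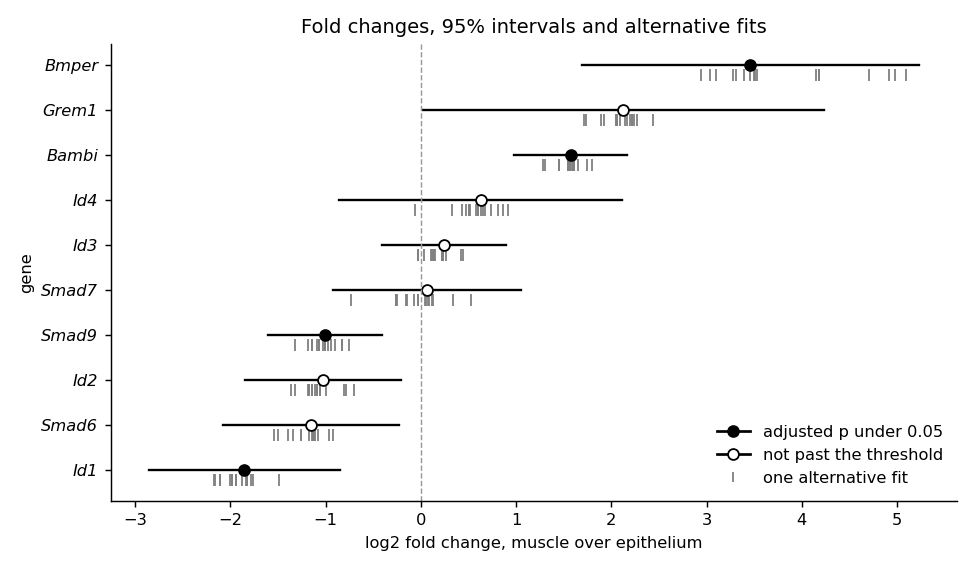
Log2 fold change of muscle over epithelium (x axis) for each gene (y axis). Circles are the edgeR estimates, filled where the adjusted p was under 0.05, lines are 95% intervals, and grey ticks are the alternative analyses. Bmper has the largest estimate and the widest set of alternatives, from 2.94 to 5.10, while the ticks of Smad7 lie on both sides of zero.

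Bmper was set against a ligand and a related binding protein within each library. Its level per length was 1.03, 1.56 and 1.12 times that of Bmp4 in muscle and 0.060, 0.67 and 0.11 times in epithelium. Relative to Chrd, which encodes the BMP antagonist chordin, it was 7.40, 7.17 and 5.58 in muscle and 1.31, 4.60 and 1.32 in epithelium. Both ratios were higher in every muscle library, and epithelium replicate 2 was again nearest to muscle.

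**Figure D4:**
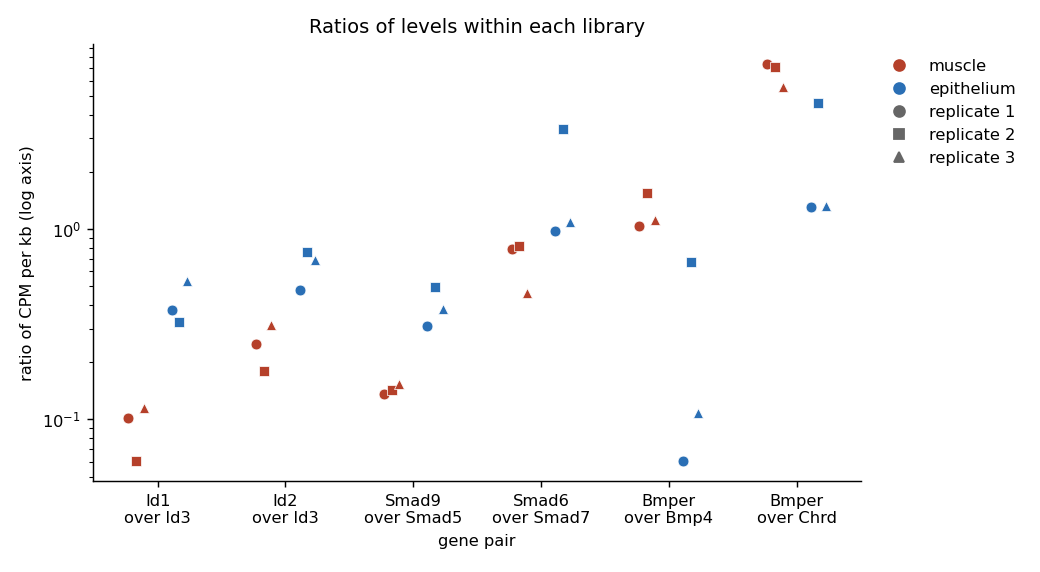
Ratios of levels per length (y axis, log scale) for 6 gene pairs (x axis) in each library, with red points for muscle and blue for epithelium. Ratios of Id1 and Id2 to Id3, of Smad9 to Smad5 and of Smad6 to Smad7 are higher in every epithelial library, and those of Bmper to Bmp4 and to Chrd in every muscle library. Only pairs without overlap between the groups are plotted, and the ratio of Smad9 to Smad1, which overlapped, is not.

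Identifiers in the table's header split the libraries into the replicates numbered 2 and those numbered 1 and 3, without saying what they mark. Among the 4 libraries numbered 1 and 3, the mean of Id1 was 3.36-fold higher in epithelium (adjusted p = 0.0015, edgeR), and between the libraries numbered 2 it was 5.05-fold higher. Bambi was 3.65-fold higher in muscle (adjusted p = 0.0016, edgeR) and 2.09-fold higher, respectively. Bmper was 33.2-fold higher in muscle (adjusted p = 0.00016, edgeR) among the former and 5.05-fold higher between the latter. Smad9 was 1.60-fold higher in epithelium among the former, where it did not pass (adjusted p = 0.070, edgeR), and 3.21-fold higher between the latter. The single pair numbered 2 allows no test. All 4 genes kept their direction in both sets, with the Bmper difference smaller and the Smad9 difference larger in the pair numbered 2.

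Other genes of the pathway were counted from lists by role. Of 68 tested, edgeR called 18 as higher in muscle and 4 as higher in epithelium, while 46 did not pass. Over all tested genes 6.58% were called higher in muscle and 4.11% higher in epithelium, and the counts by list stand beside these shares. Among tested genes with a mean log2 CPM of at least 2, 16.2% were called in either direction. The median log2 fold change was 0.41 against -0.10 for all tested genes. Of the 21 secreted antagonists and modulators, 6 were higher in muscle and 15 did not pass. Kcp, which encodes a chordin-like protein known to enhance BMP signalling, was at 78.1 ± 25.0 CPM (SD, n = 3) in muscle against 13.6 ± 7.01 in epithelium (log2FC 2.54 ± 0.41, adjusted p = 0.0047, edgeR). Chrd had 28.5 ± 4.46 and 5.73 ± 2.85 CPM (2.32 ± 0.39, adjusted p = 0.0057, edgeR). Bmp1, whose product is a protease that cleaves chordin, had 160.5 ± 44.9 and 31.4 ± 10.3 CPM (2.35 ± 0.33, adjusted p = 0.0025, edgeR). The called genes of this list, antagonists and their opponents alike, thus had the direction of Bmper.

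Of 8 intracellular inhibitors 1 was higher in muscle, Pmepa1, a TGF-beta feedback gene (2.10 ± 0.28, adjusted p = 0.0020, edgeR), and 7 did not pass. It was higher in muscle like Bambi, whereas Smad6 had its higher values in epithelium.

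Of 12 ligand genes 3 were higher in muscle and 9 did not pass. Bmp3 had a log2FC of 3.06 ± 0.39 (adjusted p = 0.0016, edgeR), Gdf5 of 2.22 ± 0.60 (0.046) and Bmp4 of 1.22 ± 0.26 (0.018). Of 11 receptors and co-receptors 4 were higher in muscle and 1 in epithelium. Toward muscle they include Acvrl1 (2.43 ± 0.38, adjusted p = 0.0038, edgeR), a type I receptor best known from endothelium, Acvr1 (1.37 ± 0.33, 0.031) and the type II receptor gene Bmpr2 (1.12 ± 0.30, 0.045). Bmpr1b, a type I receptor, was higher in epithelium (-2.0 ± 0.33, adjusted p = 0.0050, edgeR). Of the 5 other signal-transducing Smads 1 was called, Smad3 of the TGF-beta branch, higher in epithelium (-1.70 ± 0.40, adjusted p = 0.026, edgeR). Receptor genes were called in both directions, as the 10 genes were.

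Of 8 other BMP target genes, edgeR called 2 toward muscle and 1 toward epithelium. Tbx3 (3.11 ± 0.50, adjusted p = 0.0046, edgeR) and Tbx2 (1.92 ± 0.45, 0.027), T-box repressor genes, were higher in muscle. Atoh8, a basic helix-loop-helix gene, had 20.6, 19.1 and 24.2 CPM in muscle and 42.0, 47.9 and 39.3 CPM in epithelium (-1.01 ± 0.23, adjusted p = 0.021, edgeR). Its direction was that of Id1 and Smad9, and its libraries lay close together within each group.

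All 3 E protein genes, whose products are the partners that Id proteins bind, were called, and not in the same direction. Over all tested genes the share called in either direction was 10.7%. Tcf3 had 68.8, 73.5 and 179 CPM in muscle and 557, 281 and 307 CPM in epithelium, with a log2FC of -1.83 ± 0.44 (adjusted p = 0.029, edgeR). Tcf12 had 509, 199.9 and 397 CPM in muscle and 151, 140.0 and 125 CPM in epithelium (1.41 ± 0.34, adjusted p = 0.030, edgeR). Tcf4 had 119, 129.9 and 158 CPM in muscle and 65.1, 73.6 and 54.4 CPM in epithelium (1.08 ± 0.24, adjusted p = 0.020, edgeR). The groups did not overlap in any of the 3 genes, which is a condition for naming a pathway gene here. The share of all tested genes without overlap was 26.9%, and it was 37.1% among those with a mean log2 CPM of at least 2. Tcf3 was higher in epithelium, like Id1, and Tcf4 and Tcf12 were higher in muscle.

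Other scalings and leaving out a library ended some of these calls. With library size only the adjusted p (edgeR) was 0.14 for Gdf5, 0.090 for Bmpr2, 0.098 for Tbx2, 0.063 for Acvr1 and 0.064 for Tcf4. With DESeq2 size factors it was 0.086 for Gdf5, 0.054 for Bmpr2 and 0.056 for Tbx2. Gdf5 was also lost without a filter (0.059) and with background counts as a covariate (0.066), and Tcf3 in the 4 libraries numbered 1 and 3 (0.060). In the 3 libraries with few background counts, of which 1 is epithelial, Bmp4, Acvr1, Bmpr2, Atoh8 and Tcf4 were not called. In the 6 fits that left out a library Bmp3, Acvrl1, Bmpr1b, Kcp, Bmp1, Chrd, Pmepa1 and Tbx3 passed in each. The call was lost in 4 fits each for Gdf5 and Acvr1, in which muscle replicate 1, muscle replicate 3 or epithelium replicate 3 was missing, or muscle replicate 2 for Gdf5 and epithelium replicate 1 for Acvr1. Bmp4 and Tcf12 each lost it in 4, without muscle replicate 1 or 3 or epithelium replicate 2 or 3, at an adjusted p of up to 0.12 and 0.14 (edgeR). Bmpr2 lost it in 5, all but the fit without muscle replicate 2. Tbx2 and Tcf4 lost it without muscle replicate 3, epithelium replicate 1 or epithelium replicate 3, Atoh8 without muscle replicate 1, muscle replicate 3 or epithelium replicate 1, Tcf3 without muscle replicate 1, muscle replicate 2 or epithelium replicate 1, and Smad3 without muscle replicate 1 or epithelium replicate 1. The count of the 68 genes higher in muscle fell from 18 to 7 without epithelium replicate 3, to 8 without muscle replicate 3 and to 10 without muscle replicate 1, and that of genes higher in epithelium from 4 to 1 without muscle replicate 1 or epithelium replicate 1.

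**Figure D5:**
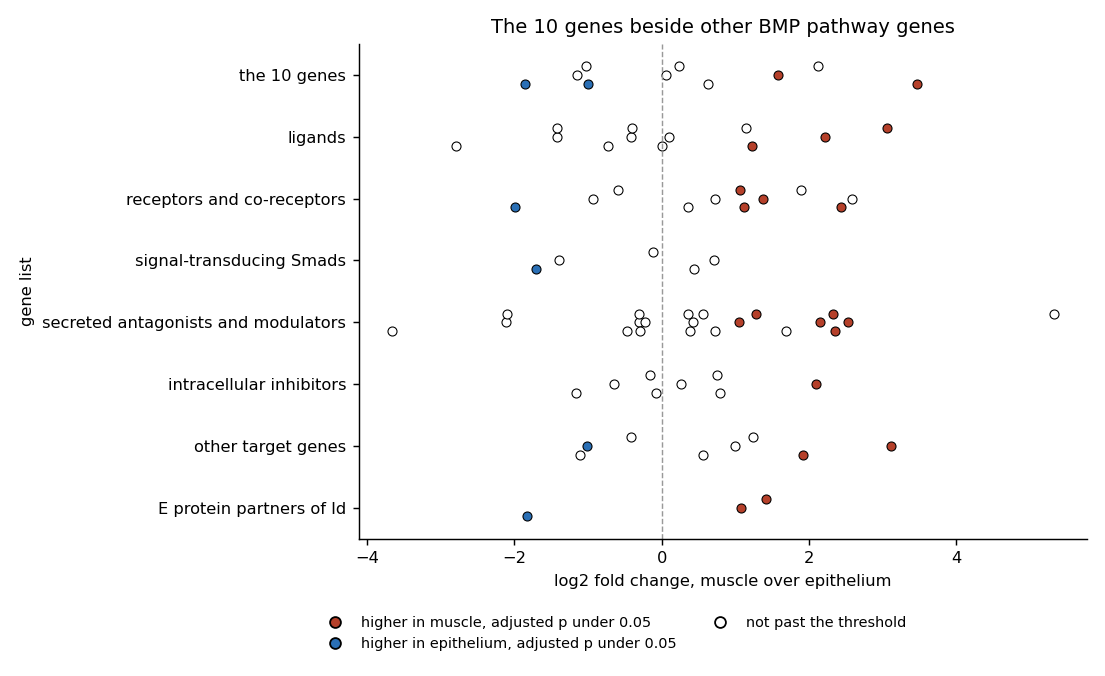
Log2 fold change of muscle over epithelium (x axis) for the 10 genes and for other BMP pathway genes by list (y axis). Each point is a gene, filled red or blue where it was higher in muscle or epithelium at an adjusted p under 0.05 (edgeR). Of the 68 other genes, 18 are red and 4 are blue.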

How the data were processed

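RNA was measured in 6 libraries, 3 of sorted muscle and 3 of sorted epithelium, assigned by their titles. The values are whole-number counts per gene symbol as deposited. Per the labels' protocols, cDNA came from a SMART-Seq low-input kit and libraries from Nextera XT. The submitters' processing notes name Trim Galore, Bowtie2, Cufflinks, DESeq and mm10, with no role or order. Annotation and filters are not given in the sources used here. Such libraries keep no strand and no molecular identifiers, and 73.8% to 79.6% of counts from 1 to 19 were even, as when both mates are counted.

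Counts were filtered (filterByExpr), scaled (TMM) and compared with edgeR 4.0.16 (R 4.3.3; quasi-likelihood test, two-sided, robust, no covariate). CPM values use the TMM-scaled library size. P-values were Benjamini-Hochberg adjusted over 19375 genes with a threshold of 0.05. SEs and 95% intervals derive from the test statistic. The script was tested on simulated data. Alternatives used DESeq2 1.42.0, limma-voom (limma 3.58.1), other scalings and filters, halved counts, covariates and fewer libraries. With 3 libraries per group an exact permutation p cannot go below 0.10. The genes and lists were chosen with earlier results of these data known. Named pathway genes are, per list and direction, up to 3 called genes without overlap and with the largest changes. Positions and exon lengths are from GENCODE M21, and promoters, found for 7 of 10 genes (not for Id1, Smad7 and Bambi), from RefSeq. The Id2 and Id3 windows hold annotated exons and are not printed. One pathway gene outside the 10 is not reported here.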

Additional observations from a re-analysis of the deposited data

How the results depend on the processing

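The number of genes called over the whole table was 2071, and it was 3531 with DESeq2, 3178 with the header identifier as a term, 983 at an adjusted p under 0.01 and between 1169 and 2573 when 1 library was left out. Of the 10 genes, those higher in muscle numbered 1 in place of 2 with library size only, without a filter and at an adjusted p under 0.01, and 1 to 2 without a library. With DESeq2 they numbered 3. Those higher in epithelium numbered 1 in place of 2 with the replicate number as a block, where Smad9 was lost (adjusted p = 0.078, edgeR), 0 at an adjusted p under 0.01 and 0 to 1 without a library. At these 0 counts, 3 to 4 of the 10 genes were higher in epithelium at an unadjusted p under 0.05 in edgeR, and DESeq2 called 3 on all libraries. That count was also 3 with DESeq2 size factors, library size only, the header identifier as a term and background counts as a covariate. Of the 68 other pathway genes, those higher in muscle fell from 18 to 11 with library size only and to 7 at an adjusted p under 0.01, and ran from 7 to 21 without a library. Those higher in epithelium rose from 4 to 7 with library size only, 9 with DESeq2 and 8 in the 3 libraries with few background counts (chosen after seeing the data, with 1 epithelial library), fell to 1 at an adjusted p under 0.01, and ran from 1 to 6 without a library. The cause was not tested.

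The log2 fold change of Id3 turned to -0.032 with library size only and to -0.026 in the 3 libraries with few background counts, and that of Id4 ran from -0.060 (without muscle replicate 3) to 0.92 without a library. That of Smad7 turned to -0.031 with DESeq2 size factors, -0.032 with the Wald test of DESeq2, -0.14 with library size only, -0.073 with limma-voom, -0.26 in the 4 libraries numbered 1 and 3 and -0.73 in the 3 libraries with few background counts. Without muscle replicate 3, epithelium replicate 2 or epithelium replicate 3 it was -0.25, -0.27 and -0.16, and without epithelium replicate 1 it was 0.53. The other 7 of the 10 genes kept their direction in all alternatives run.

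Whether the replicate numbers pair the libraries is not known. Deviations from the group means correlated at 0.54, 0.63 and -0.34 for numbers 1, 2 and 3 across 19375 genes. There, muscle replicates 1 and 2 correlated best with the epithelial library of the same number, and muscle replicate 3 with epithelium replicate 1. Over the 4123 genes with a mean log2 CPM of at least 6 the values were 0.19, 0.16 and -0.18. Deviations from a mean of 3 libraries are tied to each other, so such correlations cannot decide whether the numbers mark pairs. The block changed the calls of the 10 genes only for Smad9 and moved the count over the table from 2071 to 2418. Of the named pathway genes it ended the calls of Gdf5 (adjusted p = 0.098, edgeR), Bmpr2 (0.061), Tbx2 (0.067) and Tcf3 (0.063). Grem1 rests on 22 to 213 counts per library.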

Other observations

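Within muscle, replicate 2 was the lowest or the highest library for 8 of the 10 genes, a share near that over all tested genes (85.8%). It was the lowest muscle library for Id1 (44.5 CPM), Id2 (279), Id3 (1135), Smad9 (13.8) and Bambi (196) and the highest for Smad6 (8.79), Bmper (162) and Grem1 (8.44). It was also the muscle library with the least Actg2, 403 CPM against 2438 and 2786, and with the most background counts. Its summed smooth muscle markers were at 4137 CPM, against 16896 and 17828.5 in muscle replicates 1 and 3. Its summed cartilage markers were at 1544 CPM, against 878 and 1450. The part of these measures in its Id and Smad levels was not tested.

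Within epithelium, replicate 2 was also at an end of the range for 8 of the 10 genes, against 82.7% of all tested genes. It was the highest library for Smad6 (21.3 CPM), Smad9 (44.2), Bambi (93.8) and Bmper (32.1) and the lowest for Id1 (225), Id3 (1071), Id4 (3.61) and Smad7 (8.89). For Id2 it lay between the other epithelial libraries.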
